A study of Homo sapiens with 12 samples.

Results

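The integrin and laminin subunit genes were examined in 201B7, an established human induced pluripotent stem cell line derived from fibroblasts, under 4 culture conditions. The genes were taken by name: every integrin α subunit, every integrin β subunit and every laminin α, β and γ chain. This gave 38 genes of the 60617 in the TPM table, 26 integrin subunits (18 α and 8 β) and 12 laminin chains (5 α, 4 β and 3 γ). Of these, 37 also had a row among the 58575 usable genes of the count table, and only ITGB2 had none.

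In all conditions the cells stood on iMatrix511, a coating made of a recombinant laminin-511 fragment, and had received the ROCK inhibitor Y-27632 at seeding. Cond 1 was the control in StemFit medium. In Cond 2 (low nutrient) the StemFit had first been heated at 56 °C for 30 min, in Cond 3 (differentiation) the medium was DMEM with 10% FBS, NEAA and GlutaMax, and in Cond 4 (physical stimulus) the cells were pipetted 20 times at passaging. The paper places the start of heated medium in Cond 2 at Day 2 and the FBS stimulation of Cond 3 at Day 4. Between Cond 2 and Cond 3, medium and time of exposure therefore cannot be told apart. Each condition gave 3 libraries of the same line, harvested on Day 5. The study speaks of technical replicates and of a triplicate experiment, so p-values measure only the spread between these libraries, which may be technical.

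Integrins are cell surface receptors made of 1 α and 1 β subunit, and the pair decides which matrix protein is bound. Laminins are trimers of an α, a β and a γ chain that cells secrete into basement membranes, and the digits of laminin-511 name its chains, LAMA5, LAMB1 and LAMC1. Pluripotent stem cells hold on to laminin mainly through integrin α6β1 (ITGA6 and ITGB1), and on vitronectin they use αVβ5 (ITGAV and ITGB5). The coating is protein and adds no transcript, so the chains measured here were transcribed by the cells.

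Total counts lay between 16441148 and 21871503 per library. Libraries of one condition differed by more than sampling noise (chi-square per gene 4.18 to 10.2 over 12 pairs), and each was kept as 1 replicate. Levels are given in TPM, in which reads are divided by gene length and each library is scaled to one total, so that genes can be set side by side. Changes are log2 fold changes of the counts from edgeR's quasi-likelihood test with Benjamini-Hochberg adjustment over all 17747 genes tested. A gene is called when its adjusted p is under 0.05, and a DEG also has a fold change above 2. TPM ratios of Cond 2 to Cond 1 lay a median of 0.0866 above the edgeR values on the log2 scale, so a small TPM change there can differ from the fitted one. Markers of pluripotent cells were present in every condition, with 10 of 10 listed genes at 1 TPM or more. PTPRC, a marker of leukocytes, was at 0 in all libraries. Of 7 fibroblast or mesenchyme genes, 4 had means of at least 1 TPM in every condition, and DCN was at 0 in Cond 1, Cond 2 and Cond 3. COL1A1 had means of 246 TPM in Cond 1, 183 in Cond 2 and 436 in Cond 3. THY1 went the other way in Cond 3, with means of 141 TPM in Cond 1, 60.4 in Cond 2 and 48.9 in Cond 3.

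In the control, 5 of the 38 genes had a mean of at least 100 TPM: ITGB1, LAMA5, LAMC1, ITGB5 and ITGA6. Between 10 and 100 TPM were 10 more, among them ITGA7, LAMB2, LAMB1, LAMA1, ITGAV, ITGA5, LAMC3, ITGA3 and ITGA2B. A further 7 were between 1 and 10 TPM, and 16 were under 1 TPM. The control cells thus carried transcripts for all chains of laminin-511 (LAMA5, LAMB1, LAMC1), for those of laminin-521, in which LAMB2 takes the place of LAMB1, and for α6β1. ITGB6 was at 0 in all 12 libraries. The sum over the 26 integrin genes was 722 to 817 TPM per library in Cond 1, 615 to 637 in Cond 2, 570 to 589 in Cond 3 and 730 to 780 in Cond 4. The sum over the 12 laminin genes was 554 to 603, 553 to 577, 478 to 493 and 545 to 566 TPM in the same order. In bulk RNA, less RNA per cell and fewer cells that hold it cannot be told apart.

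**Figure D1:**
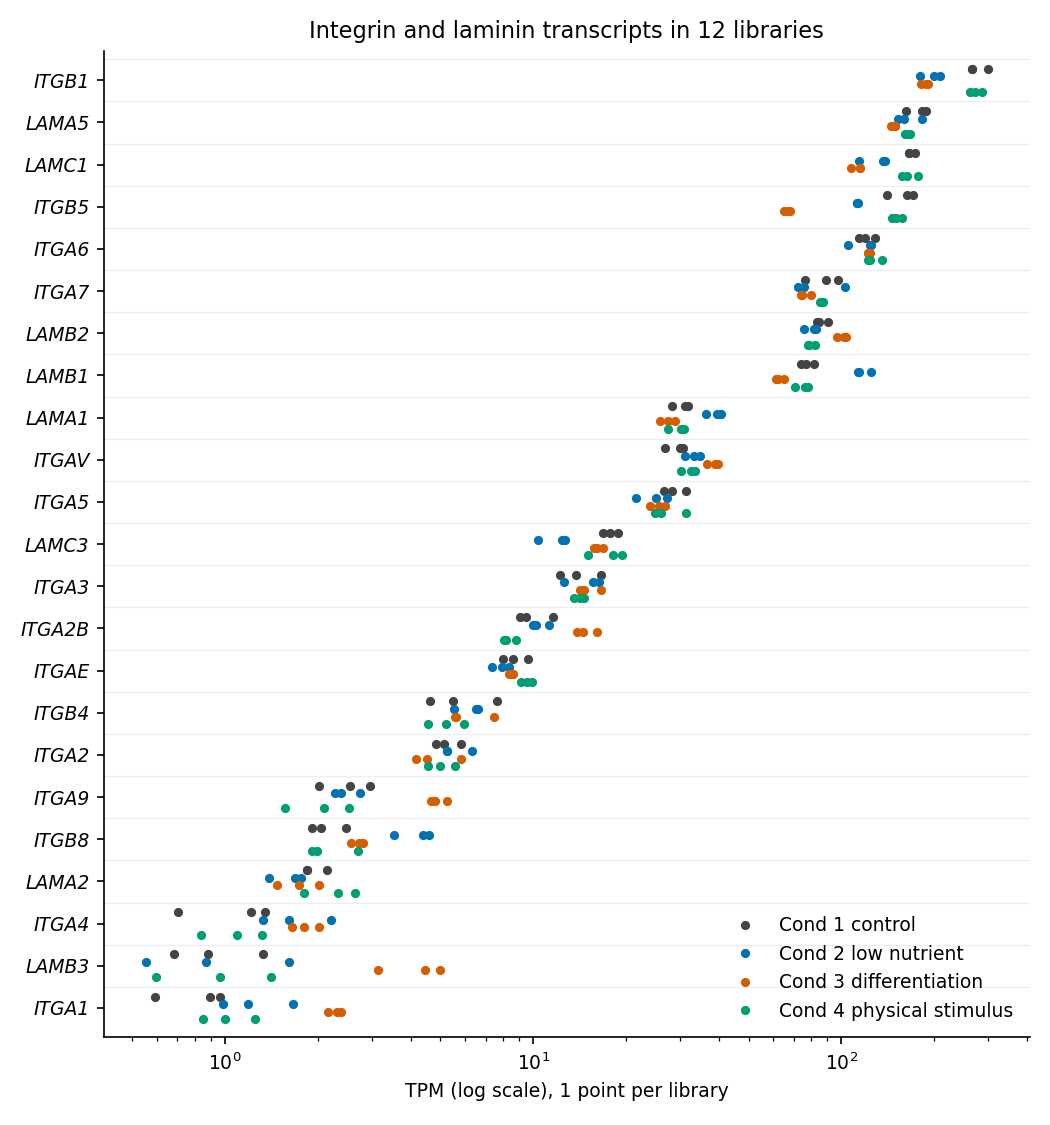
Each point is 1 library and the x axis is TPM on a log scale, for 23 genes with a mean of at least 1 TPM in any condition, ordered by their Cond 1 mean. ITGB1 is at the top, with 265.2 to 298.8 TPM in Cond 1, and the points of Cond 3 stand apart for LAMB3, ITGA1 and ITGA9 on the right and for ITGB5 on the left.

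In Cond 2 more of these genes were lower than higher. Of the 31 genes with enough counts to be tested, 3 were higher in Cond 2 (LAMB1, LAMA1, ITGB8) and 9 were lower (ITGB1, ITGB5, LAMC1, LAMC3, LAMB2, LAMA5, ITGA5, ITGAX, LAMA3). Over all 17747 genes, 10.8% were called higher and 10.1% lower, so the share called higher was close to that of all genes and the share called lower was above it. The median log2 fold change was -0.12 over the 31 genes and 0.000183 over all genes tested. The DEGs among them numbered 2, ITGAX and LAMA3, where 4.34% of all genes were DEGs, and both had means under 1 TPM. Without replicate 1 of Cond 1 the called genes numbered 7 in place of 12. The DEG count fell to 0 without any 1 replicate of Cond 1 or without replicate 2 of Cond 2, and to 1 without replicate 1 of Cond 2.

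In Cond 3, 7 of the 31 rose and 7 fell. Higher in Cond 3 were LAMB3, ITGA1, ITGA9, ITGA4, ITGA2B, ITGAV and LAMB2, and among the lower were ITGB5, LAMC1, ITGB1, LAMB1, LAMA5 and LAMA1. Of all genes tested, 19.5% were called higher and 18.8% lower, so the count was near this background. The median was -0.0644 against -0.00637 over all genes. LAMB3, ITGA1 and ITGB5 were DEGs, as were 8.16% of all genes. Both comparisons use the same 3 control libraries. Set directly against Cond 2, Cond 3 had 9 genes higher and 5 lower, where 19% and 19.2% of all genes were, with a median of 0.12 against -0.00124. The 4 DEGs of this comparison were all higher in Cond 3 (LAMB3, ITGA9, ITGAM, LAMA3), beside 8.77% of all genes in either direction.

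**Figure D2:**
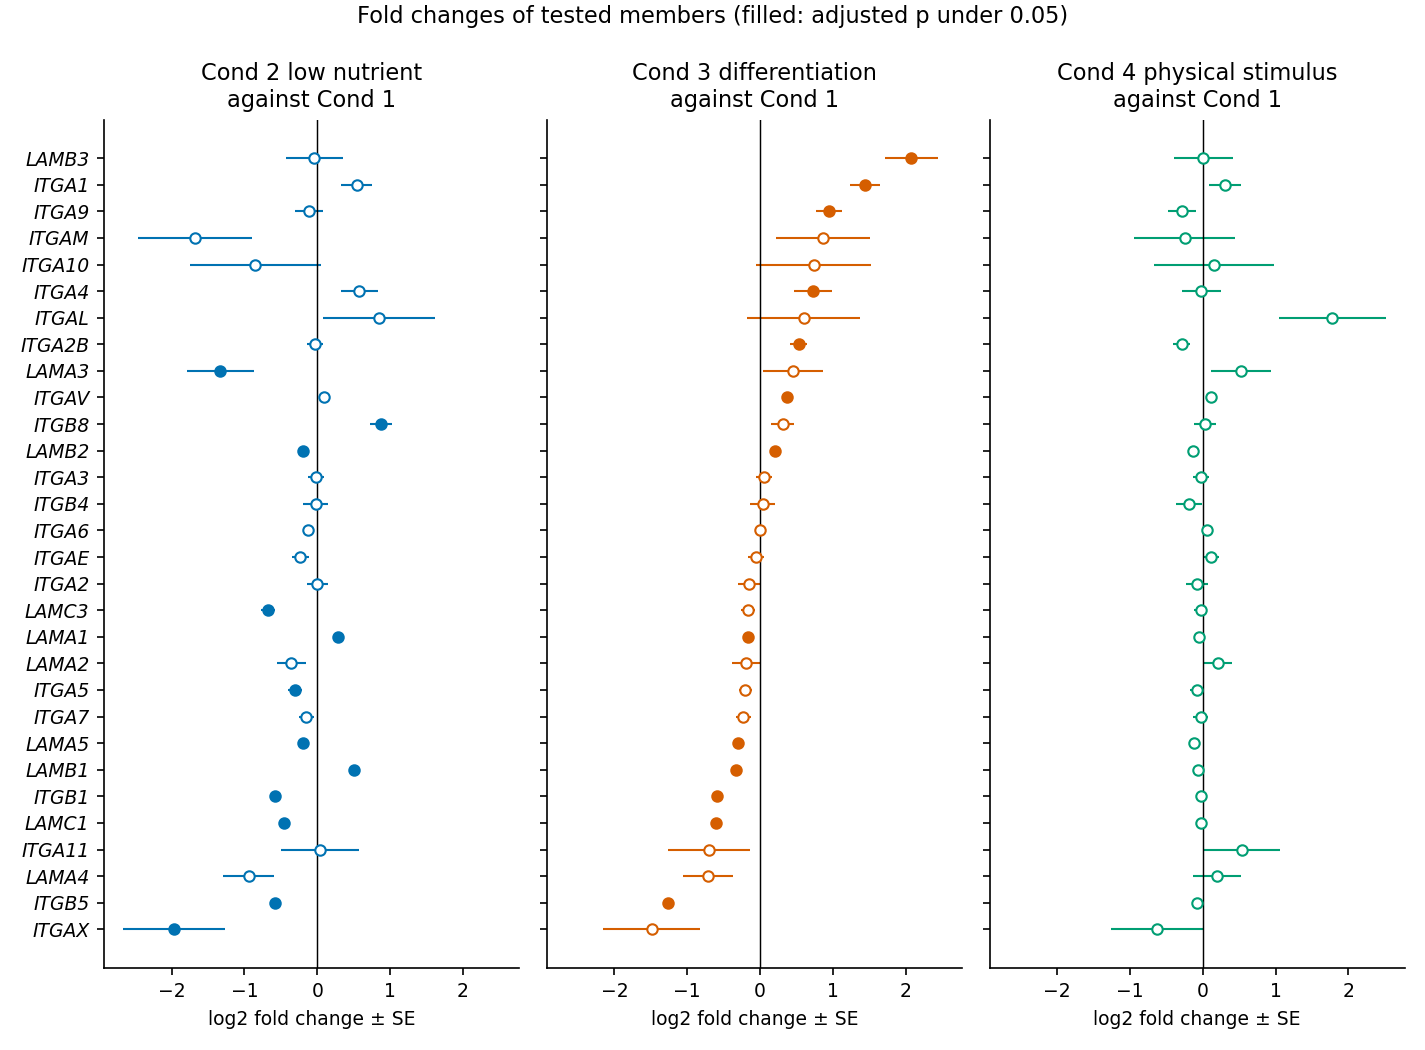
The x axis is the log2 fold change against Cond 1 with its standard error (SE), 1 row for each of 30 tested genes, and filled points have an adjusted p under 0.05 from edgeR. In Cond 3 the values run from -1.49 for ITGAX to 2.08 for LAMB3, and Cond 4 has no filled point.

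The β chains of laminin moved apart from each other. LAMB1, the β chain of laminin-511, rose in Cond 2 and fell in Cond 3, LAMB2 did the reverse, and LAMB3, the β chain of the epithelial laminin-332, rose in Cond 3. LAMC1 and ITGB1, the γ chain of laminin-511 and its receptor subunit, were lower in Cond 2 and in Cond 3. The promoters of these 5 genes are shown because they encode the β chains that differed in direction, the γ chain of laminin-511 and a subunit of its receptor. RefSeq windows on GRCh38.p14, from 250 bases before to 50 after the transcript start, were available for 26 of the 38 genes, and for the 5 shown the start was also that of the canonical GENCODE transcript. They read 5′ to 3′ on the strand of the gene, and capitals mark matches on either strand to GGGCGG, the GC box bound by SP and KLF factors, and to GGAATG, the core of TEAD sites. The windows are chr7:108003112-108003411 (reverse strand) for LAMB1, chr3:49133001-49133300 (reverse) for LAMB2, chr1:209652376-209652675 (reverse) for LAMB3, chr1:183023170-183023469 (forward) for LAMC1 and chr10:32958181-32958480 (reverse) for ITGB1.
LAMB1: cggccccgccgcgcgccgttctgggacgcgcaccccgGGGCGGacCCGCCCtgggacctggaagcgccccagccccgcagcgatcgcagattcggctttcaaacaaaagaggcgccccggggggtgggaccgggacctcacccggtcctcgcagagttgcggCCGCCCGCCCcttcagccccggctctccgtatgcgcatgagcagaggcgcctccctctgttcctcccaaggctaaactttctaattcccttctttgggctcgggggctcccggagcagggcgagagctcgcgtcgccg
LAMB2: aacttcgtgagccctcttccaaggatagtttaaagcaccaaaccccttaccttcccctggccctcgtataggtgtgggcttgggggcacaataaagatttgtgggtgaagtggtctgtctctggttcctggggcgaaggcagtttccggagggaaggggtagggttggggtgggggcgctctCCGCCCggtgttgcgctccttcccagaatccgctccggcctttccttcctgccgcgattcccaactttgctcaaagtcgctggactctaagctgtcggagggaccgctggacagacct
LAMB3: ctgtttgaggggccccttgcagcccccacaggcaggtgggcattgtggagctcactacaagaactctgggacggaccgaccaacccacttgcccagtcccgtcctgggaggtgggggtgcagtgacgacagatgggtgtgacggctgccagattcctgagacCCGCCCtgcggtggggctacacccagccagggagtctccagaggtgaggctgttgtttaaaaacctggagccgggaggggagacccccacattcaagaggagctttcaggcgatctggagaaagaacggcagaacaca
LAMC1: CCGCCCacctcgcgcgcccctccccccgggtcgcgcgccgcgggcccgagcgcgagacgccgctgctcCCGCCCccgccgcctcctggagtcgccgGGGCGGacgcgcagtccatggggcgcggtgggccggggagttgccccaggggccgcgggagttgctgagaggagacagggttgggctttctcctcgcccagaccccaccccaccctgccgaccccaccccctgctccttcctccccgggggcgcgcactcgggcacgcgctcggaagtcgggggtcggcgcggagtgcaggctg
ITGB1: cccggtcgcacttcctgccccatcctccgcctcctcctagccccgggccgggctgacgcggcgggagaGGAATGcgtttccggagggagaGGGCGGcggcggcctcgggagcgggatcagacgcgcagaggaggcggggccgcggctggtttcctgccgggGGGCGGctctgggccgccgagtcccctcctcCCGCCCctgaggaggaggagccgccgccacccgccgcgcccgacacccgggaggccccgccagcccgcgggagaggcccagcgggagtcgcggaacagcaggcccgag
The GC box was found 4 times in the LAMB1 window, 2 of them overlapping, 3 times each in those of LAMC1 and ITGB1, and 1 time each in those of LAMB2 and LAMB3. Of all 27305 promoters, 44.6% held it, as did 14 of the 26 available here. GGAATG was found in ITGB1 alone among the 5, and in 14% of all promoters and 4 of the 26. TGANTCA (the AP-1 site, 7.76% of all promoters), CCAAT (35.7%) and TATAAA (12%) were in none of the 5 windows. G and C made up 71% of the LAMB1 window, 58.7% of that of LAMB2, 61.3% of that of LAMB3, 79% of that of LAMC1 and 78.3% of that of ITGB1, and the median over all promoters was 58.3%.

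LAMB1 (ENSG00000091136) maps to chromosome 7 of GRCh38 (bases 107923799 to 108003213, reverse strand), and its TPM was 77.0, 74.2 and 81.5 in the libraries of Cond 1, 113.7, 114.6 and 124.5 in Cond 2, 65.0, 62.6 and 61.4 in Cond 3, and 70.7, 76.5 and 77.7 in Cond 4. The libraries of Cond 2 were all above and those of Cond 3 all below every library of Cond 1 and Cond 4. On the count scale LAMB1 rose 1.43-fold in Cond 2 (log2 fold change 0.51, SE 0.0579, adjusted p = 5.40e-07 from edgeR) and fell by 0.33 on the log2 scale in Cond 3 (SE 0.0584, adjusted p = 9.86e-05 from edgeR). Between Cond 3 and Cond 2 it differed by -0.84 (SE 0.0583, adjusted p = 1.22e-10 from edgeR). The fall in Cond 3 missed the threshold with limma on log2(TPM + 0.1) (adjusted p = 0.0583). Of its exon bases, 1.61% overlap DLD on the other strand, and whether reads were counted by strand is not given in the sources used here.

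LAMB2 (ENSG00000172037), the β chain of laminin-521 and of the basement membranes of muscle synapses and kidney, maps to chromosome 3 (bases 49121114 to 49133118, reverse strand), and its TPM was 90.3, 83.6 and 84.4 in Cond 1, 75.7, 82.8 and 81.8 in Cond 2, 103.3, 97.0 and 102.4 in Cond 3, and 82.1, 78.1 and 78.4 in Cond 4. Cond 3 was above all other libraries, and Cond 2 lay just below Cond 1, by less than 1 TPM at the nearest libraries. Cond 4 overlapped Cond 2 and also lay below every library of Cond 1, with a log2 fold change of -0.13 that was not called (adjusted p = 0.79 from edgeR). The log2 fold change was -0.19 in Cond 2 (SE 0.0535, adjusted p = 0.0119 from edgeR), 0.20 in Cond 3 (SE 0.0532, adjusted p = 0.00437) and 0.39 for Cond 3 against Cond 2 (SE 0.0533, adjusted p = 3.76e-06). The call in Cond 2 was lost without replicate 1 of Cond 1 (adjusted p = 0.0726 from edgeR) and with limma on log2(TPM + 1) (0.417) or log2(TPM + 0.1) (0.57), and that in Cond 3 with log2(TPM + 0.1) (0.121).

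The ratio of LAMB1 to LAMB2 TPM put both changes into 1 value per library. It was 0.853, 0.888 and 0.966 in Cond 1, 1.5, 1.38 and 1.52 in Cond 2, 0.629, 0.645 and 0.599 in Cond 3, and 0.861, 0.980 and 0.991 in Cond 4. LAMB1 was thus the more abundant β chain in every library of Cond 2 and the less abundant in all others. As a share of all laminin β TPM, LAMB1 made up 47.1% ± 1.63 (SD, n = 3) in Cond 1, 59.2% ± 1.19 in Cond 2, 37.5% ± 0.963 in Cond 3 and 48.2% ± 2.07 in Cond 4. Neither the ratios of Cond 2 nor those of Cond 3 overlapped the control. The ratio joins 2 genes already called in opposite directions in these same libraries, so this separation is no separate test.

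LAMB3 (ENSG00000196878) maps to chromosome 1 (bases 209614870 to 209652425, reverse strand), and its TPM was 1.33, 0.684 and 0.881 in Cond 1, 0.554, 0.867 and 1.61 in Cond 2, 3.13, 4.44 and 4.99 in Cond 3, and 1.41, 0.964 and 0.597 in Cond 4. Cond 3 stood above all 9 other libraries, which overlapped each other. The counts behind these levels were 15 to 34 in Cond 1 and 89 to 123 in Cond 3. The rise was 4.21-fold, the largest of the 31 genes in Cond 3 (log2 fold change 2.08, SE 0.362, adjusted p = 8.39e-05 from edgeR). LAMA3, the α chain that assembles with it, stayed under 1 TPM with a log2 fold change of 0.45 (SE 0.411, adjusted p = 0.421).

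**Figure D3:**
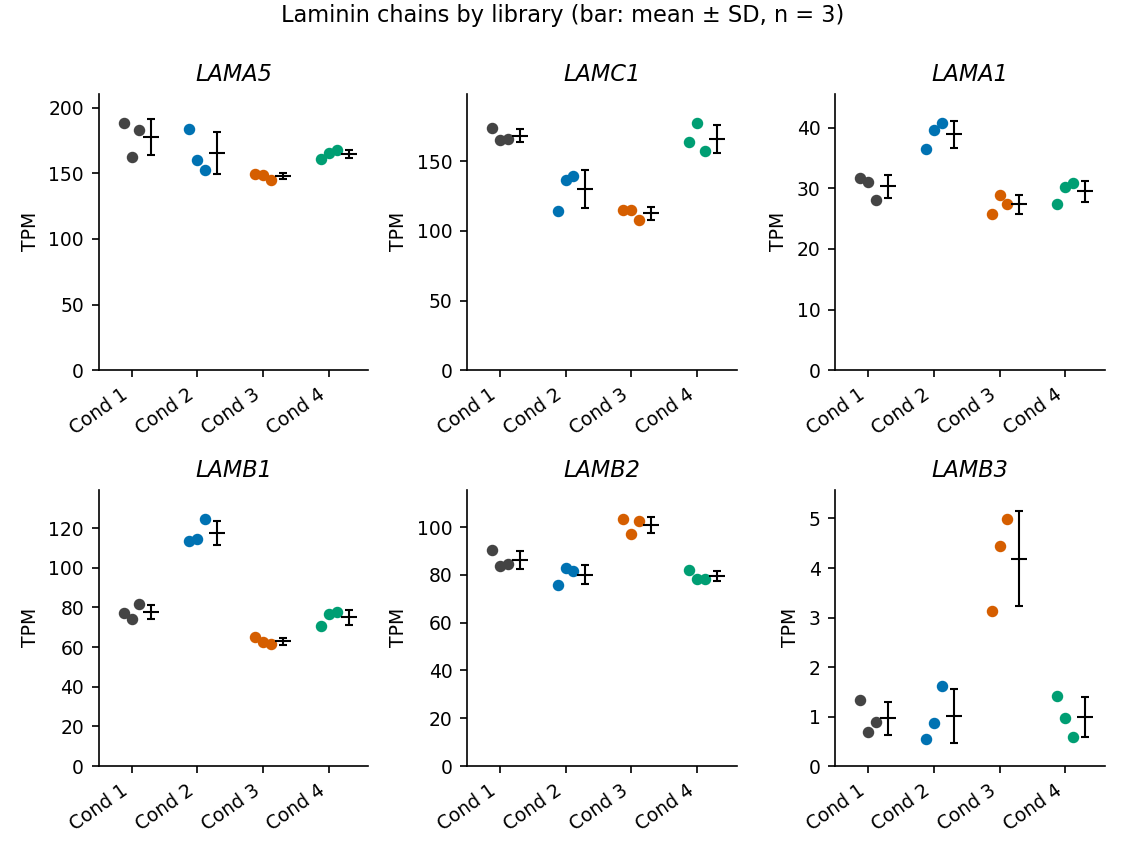
TPM of 6 laminin chains, 1 point per library, with the mean and SD (n = 3) beside each group and axes from 0. LAMB1 is highest in Cond 2, at 113.7 to 124.5 TPM, LAMB2 and LAMB3 are highest in Cond 3, and LAMC1 is lower in Cond 2 and Cond 3 than in Cond 1 and Cond 4.

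Among the laminin α chains, LAMA5 was by far the most abundant, and it fell slightly. LAMA5 (ENSG00000130702), the α chain of laminin-511 and laminin-521, maps to chromosome 20 (bases 62307955 to 62367312, reverse strand), and its TPM was 188.2, 162.5 and 182.9 in Cond 1, 183.5, 160.4 and 152.4 in Cond 2, 149.2, 149.0 and 145.2 in Cond 3, and 161.2, 165.5 and 167.6 in Cond 4. The libraries of Cond 3 were below all others, and those of Cond 2 overlapped Cond 1. The log2 fold change was -0.19 in Cond 2 (SE 0.0657, adjusted p = 0.0441 from edgeR) and -0.30 in Cond 3 (SE 0.0657, adjusted p = 0.00104). In Cond 2 the call was lost when replicate 1 or 3 of Cond 1, or replicate 2 or 3 of Cond 2, was left out (adjusted p between 0.163 and 0.212 from edgeR) and with the 6 libraries fitted alone (0.108). It was also lost with limma on log2(TPM + 1) (0.545) and log2(TPM + 0.1) (0.641), as was the call in Cond 3 (0.0553 and 0.137).

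LAMA1, the α chain of laminin-111 that is laid down early in the embryo, followed the directions of LAMB1, with which it assembles. Its TPM was 28.2 to 31.7 in Cond 1, 36.5 to 40.8 in Cond 2, 25.8 to 28.9 in Cond 3 and 27.4 to 30.8 in Cond 4. Cond 2 stood above the other 9 libraries, and Cond 3 overlapped Cond 1. LAMA1 rose in Cond 2 (log2 fold change 0.28, SE 0.063, adjusted p = 0.00249 from edgeR) and was called lower in Cond 3 (-0.17, SE 0.0634, adjusted p = 0.033), and between Cond 3 and Cond 2 it differed by -0.45 (SE 0.0631, adjusted p = 5.79e-06). The small fall in Cond 3 missed the threshold without replicate 1 or 2 of Cond 1 or replicate 1 or 3 of Cond 3 (adjusted p between 0.0715 and 0.168 from edgeR), with upper-quartile normalization (0.0607) and with limma (0.296 and 0.423). The rise in Cond 2 missed it with limma on log2(TPM + 0.1) (0.076). As a share of all laminin α TPM, LAMA1 took 14.4% ± 1.33 (SD, n = 3) in Cond 1 and 19.0% ± 2.29 in Cond 2, and LAMA5 84.2% ± 1.45 and 80.0% ± 2.39. LAMA2 had means between 1.61 and 2.26 TPM and LAMA4 between 0.33 and 0.694 TPM, and neither was called in any comparison.

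Of the laminin γ chains, LAMC1 was the most abundant and fell in Cond 2 and in Cond 3. LAMC1 (ENSG00000135862), the γ chain of most laminins, maps to chromosome 1 (bases 183023420 to 183145592, forward strand), and its TPM was 173.9, 165.4 and 165.8 in Cond 1, 114.4, 136.9 and 139.2 in Cond 2, 115.1, 115.1 and 107.5 in Cond 3, and 163.5, 177.4 and 157.7 in Cond 4. All libraries of Cond 2 and Cond 3 were below all of Cond 1 and Cond 4. The log2 fold change was -0.46 in Cond 2 (SE 0.0595, adjusted p = 3.83e-06 from edgeR) and -0.61 in Cond 3 (SE 0.0596, adjusted p = 3.44e-08), and the difference between Cond 3 and Cond 2, -0.15, missed the threshold (adjusted p = 0.0523). With limma on log2(TPM + 0.1) the call in Cond 2 was lost (0.0788).

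LAMC3, a γ chain found in brain and skin among other tissues, was called lower in Cond 2 and not in Cond 3. LAMC3 TPM was 16.8 to 18.8 in Cond 1, 10.4 to 12.6 in Cond 2, 15.8 to 16.9 in Cond 3 and 15.1 to 19.4 in Cond 4. The 3 libraries of Cond 2 thus lay below all 9 others. LAMC3 fell by 0.68 on the log2 scale in Cond 2 (SE 0.0971, adjusted p = 1.43e-05 from edgeR), and Cond 3 was above Cond 2 by 0.52 (SE 0.0971, adjusted p = 1.68e-04).

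Of the integrin β subunits, ITGB1 and ITGB5 made up nearly all transcripts, and both fell in Cond 2 and in Cond 3. ITGB1 (ENSG00000150093), the partner of most α subunits and of all laminin-binding ones, maps to chromosome 10 (bases 32887273 to 33005792, reverse strand), and its TPM was 298.8, 265.2 and 266.3 in Cond 1, 180.0, 199.9 and 209.5 in Cond 2, 181.4, 191.8 and 189.0 in Cond 3, and 262.6, 271.3 and 286.5 in Cond 4. Cond 2 and Cond 3 overlapped each other and lay below every library of Cond 1 and Cond 4. ITGB1 fell to 0.668 of the control in Cond 2 (log2 fold change -0.58, SE 0.0559, adjusted p = 4.68e-08 from edgeR) and to 0.664 in Cond 3 (-0.59, SE 0.0558, adjusted p = 2.01e-08). Between Cond 3 and Cond 2 the log2 difference was -0.01, with a 95% interval from -0.12 to 0.10.

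ITGB5 (ENSG00000082781), which pairs with αV on vitronectin, maps to chromosome 3 (bases 124761948 to 124901418, reverse strand), and its TPM was 171.6, 163.8 and 140.5 in Cond 1, 112.9, 113.6 and 112.1 in Cond 2, 67.0, 68.2 and 65.2 in Cond 3, and 146.6, 150.5 and 157.7 in Cond 4. The libraries fell into 3 levels that did not overlap, with Cond 1 and Cond 4 on top, Cond 2 between and Cond 3 lowest. The log2 fold change was -0.58 in Cond 2 (SE 0.0597, adjusted p = 1.56e-07 from edgeR) and -1.27 in Cond 3 (SE 0.0609, adjusted p = 2.68e-13), the largest fall of any tested gene here above 1 TPM. The difference between Cond 3 and Cond 2 was -0.70 (SE 0.0608, adjusted p = 5.10e-09). The ratio of ITGB1 to ITGB5 TPM was 1.59 to 1.87 in Cond 2 and overlapped the 1.62 to 1.89 of Cond 1, and it was higher in Cond 3, at 2.71 to 2.90. ITGB5 made up 35.7% ± 1.81 (SD, n = 3) of all integrin β TPM in Cond 1 and 25.3% ± 0.617 in Cond 3.

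ITGB8, the partner of αV that binds latent TGF-β, rose in Cond 2. Its TPM was 1.91 to 2.47 in Cond 1, 3.53 to 4.58 in Cond 2, 2.57 to 2.81 in Cond 3 and 1.91 to 2.71 in Cond 4. Cond 2 stood above all other libraries, and the rise was 1.83-fold (log2 fold change 0.88, SE 0.151, adjusted p = 1.43e-04 from edgeR). Its value of 0.31 in Cond 3 was not called (adjusted p = 0.123), and Cond 3 was lower than Cond 2 by 0.57 (SE 0.148, adjusted p = 0.0038). ITGB4, the α6 partner of hemidesmosomes, had means of 5.24 to 6.21 TPM and was called in no comparison. ITGB3, which also pairs with αV, was near 0, at 0.413, 0 and 0.1165 TPM in Cond 1, 0.0901, 0.239 and 0 in Cond 2, 0, 0.416 and 0.0858 in Cond 3, and 0, 0.0887 and 0.0421 in Cond 4, and was not tested.

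None of ITGA3, ITGA6 and ITGA7, the α subunits grouped here as laminin-binding, was called in any comparison. ITGA6, the α subunit of α6β1, had a TPM of 128.3, 114.2 and 119.5 in Cond 1, 105.3, 125.3 and 123.7 in Cond 2, 122.3, 124.2 and 122.2 in Cond 3, and 124.3, 121.7 and 135.5 in Cond 4. All 4 conditions overlapped. The log2 fold change was -0.12 in Cond 2 (95% interval -0.24 to 0, adjusted p = 0.176 from edgeR) and -0.00112 in Cond 3 (95% interval -0.12 to 0.12, adjusted p = 0.991), the sign of the second depending on the normalization. Each library thus held more ITGA6 per ITGB1 transcript in Cond 2 and Cond 3, with a TPM ratio of 0.585 to 0.627 and 0.647 to 0.674 against 0.429 to 0.449 in Cond 1 and 0.449 to 0.473 in Cond 4. ITGA3, which pairs with β1 on laminin-332 and laminin-511, had 16.6, 12.2 and 13.7 TPM in Cond 1, 16.4, 12.6 and 15.7 in Cond 2, 14.2, 16.6 and 14.6 in Cond 3, and 13.5, 14.6 and 14.2 in Cond 4. Its conditions overlapped too, with log2 fold changes of -0.0176 in Cond 2 (adjusted p = 0.941) and 0.0641 in Cond 3 (adjusted p = 0.694), each of which turned in sign under some alternatives. ITGA7, the laminin receptor of muscle, ranked after ITGA6 among the α subunits with means of 76.2 to 87.6 TPM, and was not called. Together ITGA3, ITGA6 and ITGA7 made up 71.7% ± 1.05 (SD, n = 3) of all integrin α TPM in Cond 1, 71.1% ± 1.54 in Cond 2, 67.6% ± 0.104 in Cond 3 and 72.1% ± 0.58 in Cond 4.

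**Figure D4:**
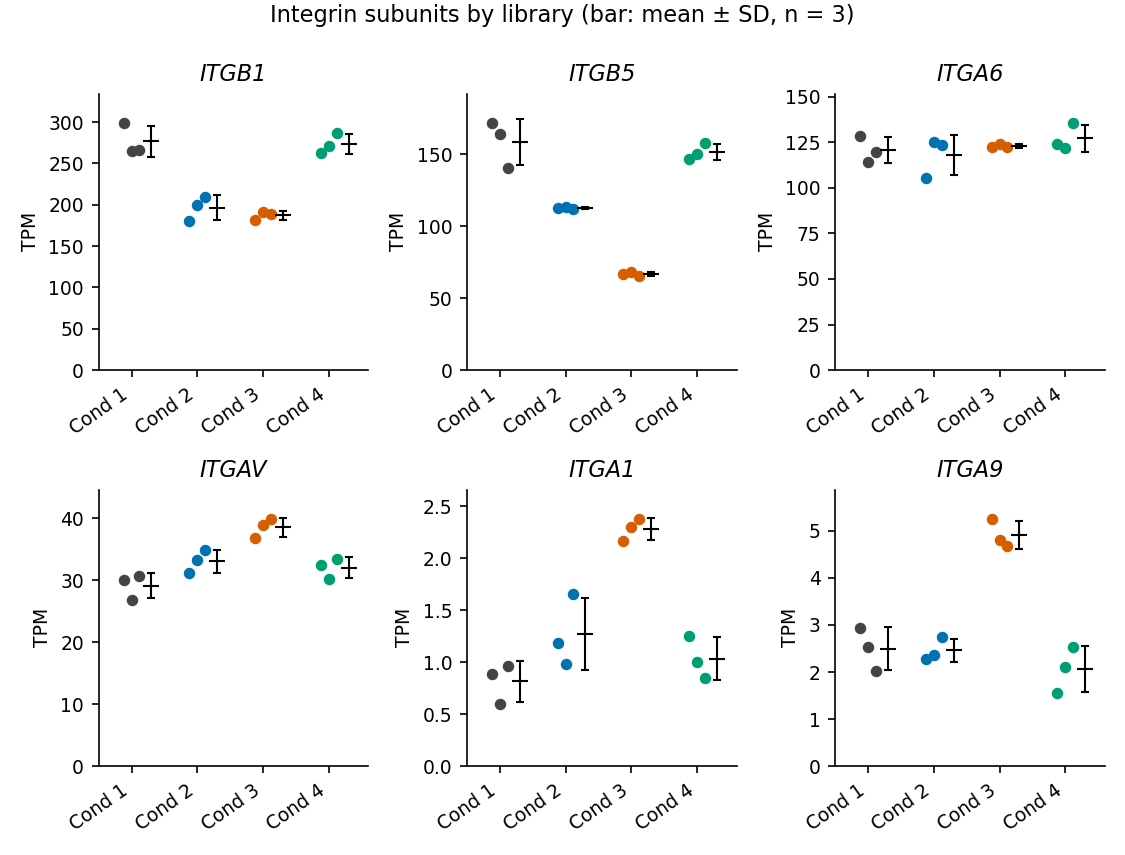
TPM of 6 integrin subunits, 1 point per library, with the mean and SD (n = 3) beside each group and axes from 0. ITGB1 is at 180.0 to 209.5 TPM in Cond 2 and Cond 3 and at 262.6 TPM or more in the other conditions, ITGB5 forms 3 levels, ITGA6 overlaps in all 4 conditions, and ITGAV, ITGA1 and ITGA9 are highest in Cond 3.

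The α subunits that bind the RGD sequence of fibronectin and vitronectin moved in both directions. ITGAV had a TPM of 30.0, 26.8 and 30.6 in Cond 1, 31.2, 33.2 and 34.8 in Cond 2, 36.8, 38.9 and 39.8 in Cond 3, and 32.4, 30.2 and 33.5 in Cond 4. Cond 3 was above all other libraries. ITGAV rose by 0.37 in Cond 3 (SE 0.0693, adjusted p = 1.66e-04 from edgeR), while its partner ITGB5 fell, and its Cond 2 value of 0.0936 was not called (adjusted p = 0.393). Cond 3 was also above Cond 2, by 0.28 (SE 0.069, adjusted p = 0.00253 from edgeR), although not with limma (0.079 and 0.19). ITGA5, the α subunit of the fibronectin receptor α5β1, had 31.3, 28.2 and 26.5 TPM in Cond 1, 25.0, 21.6 and 27.1 in Cond 2, 24.0, 25.7 and 26.8 in Cond 3, and 25.9, 24.9 and 31.3 in Cond 4. Its libraries overlapped in all conditions. It was called lower in Cond 2 (-0.31, SE 0.0958, adjusted p = 0.0229 from edgeR), but not without replicate 1 of Cond 1 (0.129), without replicate 2 of Cond 2 (0.155) or with limma (0.336 and 0.453). In Cond 3 the value was -0.20 (adjusted p = 0.107). ITGA2B, known from platelets, rose from 9.04 to 11.6 TPM in Cond 1 to 13.9 to 16.1 TPM in Cond 3 (log2 fold change 0.53, SE 0.113, adjusted p = 6.52e-04 from edgeR).

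The collagen receptor subunit ITGA1 and the tenascin and VCAM1 receptor subunit ITGA9 rose in Cond 3 from low levels. ITGA1 had 0.890, 0.593 and 0.965 TPM in Cond 1, 1.18, 0.981 and 1.66 in Cond 2, 2.16, 2.30 and 2.38 in Cond 3, and 1.25, 0.997 and 0.847 in Cond 4. Cond 3 was above all others, and the rise was 2.72-fold (log2 fold change 1.44, SE 0.209, adjusted p = 8.80e-06 from edgeR). In Cond 2 the value was 0.54 (adjusted p = 0.0818). PELO, whose mean count was 742 against 134.6 for ITGA1, shares 2.69% of the ITGA1 exon bases on the same strand. Reads from there match both genes, and whether they were counted for ITGA1 is not given in the sources used here. ITGA9 had 2.94, 2.54 and 2.02 TPM in Cond 1, 2.27, 2.37 and 2.74 in Cond 2, 5.25, 4.81 and 4.67 in Cond 3, and 1.56, 2.097 and 2.53 in Cond 4. Its libraries of Cond 3 were above all others by more than 1 TPM. The log2 fold change was 0.95 against Cond 1 (SE 0.181, adjusted p = 2.28e-04 from edgeR) and 1.06 against Cond 2 (SE 0.182, adjusted p = 7.22e-05). The antisense transcript ITGA9-AS1 overlaps 9.23% of its exon bases. ITGA4, close to ITGA9 in the family, was called higher in Cond 3 (0.73, SE 0.256, adjusted p = 0.0285 from edgeR) at 1.65 to 2.02 TPM against 0.705 to 1.35 in Cond 1. This call was lost without replicate 3 of Cond 1 (0.164), without replicate 1 (0.0961) or 3 (0.0604) of Cond 3, and with limma (0.087 and 0.12). ITGA2, a further collagen receptor subunit, was not called, with means of 4.84 to 5.61 TPM.

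**Figure D5:**
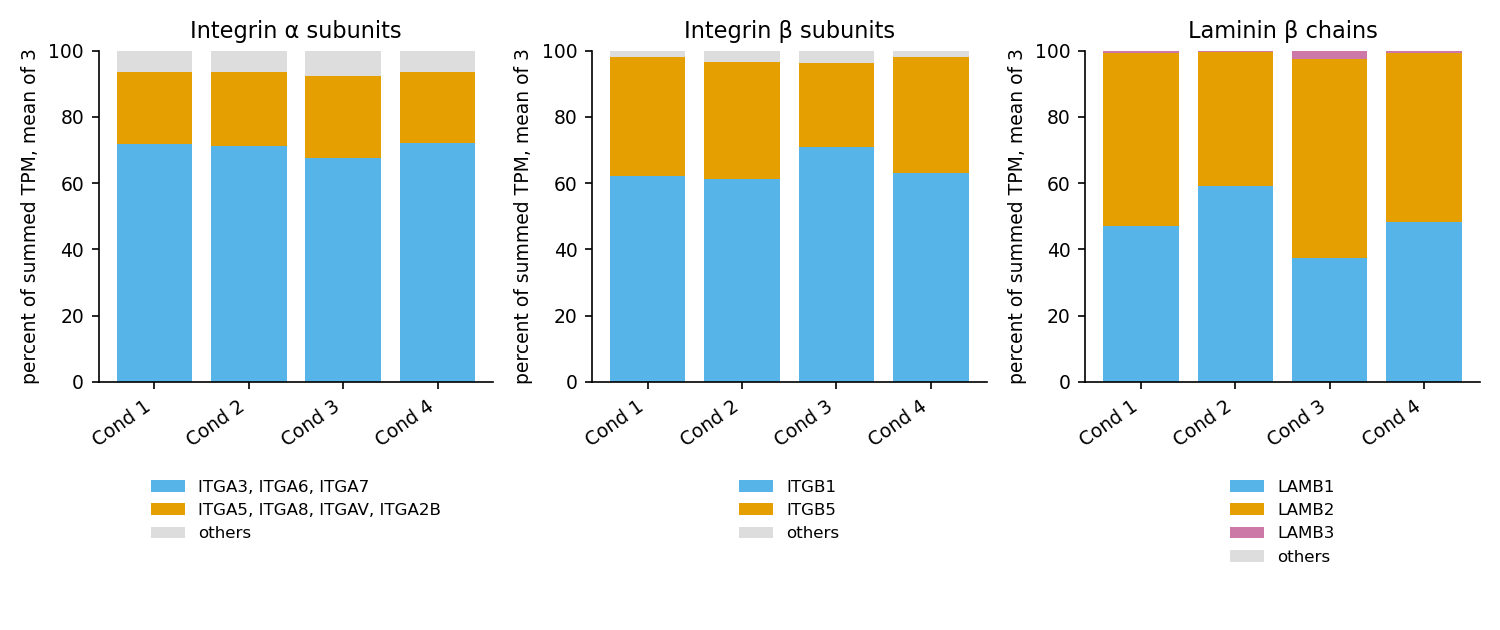
Stacked bars give the percent of summed TPM, as the mean of 3 libraries, held by groups of α subunits, by β subunits and by laminin β chains in each condition. ITGB1 takes 71% of β TPM in Cond 3 against 62.3% in Cond 1, and LAMB1 takes 59.2% of laminin β TPM in Cond 2 and 37.5% in Cond 3.

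Leukocyte subunits were nearly absent apart from ITGAE, which had means of 7.89 to 9.53 TPM, was not called, and shares 6.47% of its exon bases with HASPIN on the other strand. ITGAX, ITGAM, ITGAL, ITGAD and ITGB2 had means under 1 TPM in every condition. ITGAX, at 0.265 to 0.569 TPM in Cond 1 and 0 to 0.264 in Cond 2, was called lower there (-1.97, SE 0.7, adjusted p = 0.0488 from edgeR). LAMA3, at 0.334 to 0.349 TPM in Cond 1 and 0.027 to 0.255 in Cond 2, was called lower too (-1.33, SE 0.463, adjusted p = 0.0441 from edgeR). With a library left out, each of these 2 calls was kept only without replicate 3 of Cond 2, and the other 5 fits gave adjusted p of 0.0502 to 0.17 for ITGAX and 0.0808 to 0.169 for LAMA3. With the 6 libraries of Cond 1 and Cond 2 alone both calls were lost (adjusted p = 0.0695 from edgeR for ITGAX and 0.101 for LAMA3), and with the replicate block that of ITGAX was (0.0652). Limma did not call either (0.0671 and 0.104 for ITGAX, 0.155 and 0.154 for LAMA3). Between Cond 3 and Cond 2, LAMA3 differed by 1.78 (SE 0.452, adjusted p = 0.00322 from edgeR) and ITGAM by 2.55 (SE 0.75, adjusted p = 0.00941), the latter not without replicate 2 of Cond 2 (0.0532). ITGA8, ITGAD, ITGB3, ITGB6, ITGB7 and LAMB4 were below the filter on low counts, with at most 0.416 TPM in any library.

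In Cond 4, the pipetted cells, 0 of the 31 genes were called by edgeR, where 0.0225% of all genes were called higher, 0.00563% lower and 0.0169% were DEGs. The lowest adjusted p was 0.79, and 3 genes had an unadjusted p under 0.05, ITGA2B (-0.29), LAMB2 (-0.13) and ITGAL (1.78, at 0.331 to 0.555 TPM in Cond 4). Of all genes tested 6.21% passed that mark, and 3 of 31 is near this background. The 3 are named for having passed that mark. DESeq2 called 0 with 3 at an unadjusted p under 0.05, and limma called 0 with 2 on log2(TPM + 1) and 1 on log2(TPM + 0.1). The 95% interval of the log2 fold change was -0.14 to 0.08 for ITGB1, -0.19 to 0.04 for ITGB5, -0.18 to 0.05 for LAMB1 and -0.05 to 0.18 for ITGA6.

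Genes that work with integrins and laminins were counted in 4 further lists. Of all genes tested, 10.8% were called higher and 10.1% lower in Cond 2 (20.9% in all), and 19.5% higher and 18.8% lower in Cond 3 (38.4% in all), and each list is to be read against these shares. Of the adaptors that tie integrins to actin, 30 of 32 listed genes were tested, with 5 higher and 2 lower in Cond 2 (median log2 fold change 0.0595) and 6 higher and 9 lower in Cond 3 (median -0.0132). That is 23.3% of the adaptors called in Cond 2, close to the share of all genes, and 50% in Cond 3. FERMT2 (kindlin-2), which activates β1 integrins, rose by 0.94 in Cond 2 (SE 0.0542, adjusted p = 1.05e-11 from edgeR), to a mean of 160 TPM from 78.8, and FHL2 by 0.51. TES and TNS1 fell there by 0.80 and 0.62. In Cond 3 TNS3 and TNS2, which bind β integrin tails, rose by 0.87 and 0.83, and ZYX (zyxin) and TES, 2 LIM proteins of focal adhesions, fell by 1.21 and 1.17.

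Of the basement membrane partners of laminin, 17 of 18 were tested, with 2 higher and 5 lower in Cond 2 (median -0.19) and 1 higher and 6 lower in Cond 3 (median 0.0364), or 41.2% called in each. NID1 (nidogen-1), which links laminin γ1 to collagen IV, fell by 0.72 in Cond 2 (SE 0.0715, adjusted p = 7.42e-08 from edgeR), and TINAGL1 by 1.19. COL4A6 and HSPG2 (perlecan) rose by 0.28 and 0.23 in Cond 2 and fell by 0.68 and 0.37 in Cond 3, where NID2 rose by 0.27. Of other integrin ligands, 15 of 17 were tested, with 2 higher and 4 lower in Cond 2 (median -0.0975) and 4 higher and 5 lower in Cond 3 (median -0.0823), or 40% and 60% called. FN1 (fibronectin) and COL1A1 fell by 0.72 and 0.51 in Cond 2, where FBN2 and THBS1 rose by 0.73 and 0.70. In Cond 3 TNC (tenascin-C), a ligand of α9β1, rose by 1.69 (SE 0.203, adjusted p = 7.05e-07 from edgeR) and TGFB1 by 0.90, while CCN2 and THBS1 fell by 1.98 and 1.18.

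Of other laminin receptors and tetraspanins, 11 of 12 were tested, with 3 higher and 6 lower in Cond 2 (median -0.16) and 5 higher and 2 lower in Cond 3 (median 0.18), or 81.8% and 63.6% called. The tetraspanins CD9 and CD151, which sit beside laminin-binding integrins, fell by 1.28 and 0.32 in Cond 2, and CD47 and SDC1 (syndecan-1) rose by 0.46 and 0.42. In Cond 3 BCAM, the Lutheran receptor of LAMA5, fell by 0.71 (SE 0.0547, adjusted p = 8.24e-10 from edgeR) and CD81 by 0.25, and CD82 and SDC1 rose by 1.32 and 0.64. In Cond 4 none of the genes in these 4 lists was called by edgeR. At an unadjusted p under 0.05 were 2 of 30 adaptors, 6 of 17 basement membrane partners, 3 of 15 ligands and 4 of 11 receptors and tetraspanins, beside 6.21% of all genes tested, to which the adaptors were close.

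Markers of other cell types moved with the conditions. Their counts are to be read beside the 20.9% of all genes tested that were called in Cond 2 and the 38.4% in Cond 3. Of 6 neuroectoderm genes 5 were tested, of which 4 rose in Cond 2 and 1 (LHX5) in Cond 3. The summed TPM of the 6 was 435 to 705 in Cond 2 against 6.86 to 24.7 in Cond 1, 31 to 47.5 in Cond 3 and 11.7 to 30.4 in Cond 4. The 6 markers of surface ectoderm or amnion summed to 39.3 to 73.1 TPM in Cond 2, where 4 of the 5 tested rose and 1 fell, and to 27 to 32.3 in Cond 1. The 7 fibroblast or mesenchyme genes, of which DCN was at 0 in these 3 conditions, summed to 585 to 622 TPM in Cond 3, 265 to 314 in Cond 2 and 424 to 456 in Cond 1. Of the 5 tested, 2 rose (COL1A2, COL1A1) and 1 fell (THY1) in Cond 3, and 0 rose and 3 fell in Cond 2. Mesendoderm genes stayed at 1.38 to 5.75 TPM in sum in all libraries, with FOXA2 at 0. Only 2 of the 7 were tested, and TBXT alone was called, higher in Cond 3. Endothelial and blood markers summed to at most 1.05 TPM. Of the 10 pluripotency markers, all tested, 4 rose and 4 fell in Cond 2 and likewise in Cond 3. The falls reached further than the rises. The largest falls were TDGF1 (-1.50) and NANOG (-1.09) in Cond 2 and NANOG (-2.16) and TDGF1 (-0.94) in Cond 3. The largest rise was that of SOX2, 0.44 in Cond 2 and 0.45 in Cond 3. The part of these cell types in the integrin and laminin changes was not tested.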

How the data were processed

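The data are 12 RNA-Seq libraries from the iPSC line 201B7, 3 for each of 4 conditions, grouped by their labels. According to the methods and the processing notes, the authors demultiplexed with bcl2fastq 2.20.0.422, trimmed with cutadapt 4.1 and fastp 0.20.1, aligned to GRCh38 with HISAT2 2.1.0 and counted with featureCounts. The authors deposited whole-number read counts per gene and a table of TPM values. How multiply matching reads and strand were counted is not given in the sources used here. Of the count table, 5 lines without a whole gene row were left out, and 2042 genes of the TPM table had no count row. Coordinates are from GENCODE release 44.

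The test was edgeR 4.0.16 (TMM, filterByExpr, quasi-likelihood) in R 4.3.3, with all 12 libraries in one fit. The 95% intervals treat the fold change as normally distributed with its SE, which makes them slightly narrower than the test implies. For ITGA6 in Cond 2 the interval reached only to 0, where the unadjusted p was 0.0583 from edgeR. The methods were also run on simulated counts, with changes of 2-fold or more in well-counted genes and a constant spread. That run did not cover smaller changes or genes with low counts. Alternatives were upper-quartile normalization, DESeq2 1.42.0, leaving out the filter, genes with at least 1 TPM in all libraries, limma 3.58.1 on log2(TPM + 1) and log2(TPM + 0.1), 6 libraries alone, a replicate block, and each replicate left out.

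Values in every library are given for genes with a mean of at least 1 TPM in a condition that were DEGs in any comparison, and, whatever their change, for LAMA5, LAMB1, LAMC1, ITGA6, ITGA3, ITGA5, ITGAV, ITGB1, ITGB5 and ITGB3. LAMB2 met neither of these rules, and its values in every library were given after its calls were seen. Other genes are given by counts and ranges, with fold changes where called. From each pathway list the 2 largest rises and falls at 1 TPM or more were named. ITGAL, LAMB2 and ITGA2B in Cond 4, and values given for genes that were not called, were chosen after their values were seen. Single values of some genes are not reported here. The genes and lists were chosen with earlier results of these data known.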

Additional observations from a re-analysis of the deposited data

Results flagged for a closer look

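The response of 3 laminin chains differed between Cond 2 and Cond 3, each being called on opposite sides of the control in the 2 conditions. They were picked for those calls and for a call in Cond 3 against Cond 2. The values below come from the same libraries and are no separate test. Cond 3 set directly against Cond 2 gave a log2 fold change of -0.84 for LAMB1 (adjusted p = 1.22e-10 from edgeR), -0.45 for LAMA1 (adjusted p = 5.79e-06) and 0.39 for LAMB2 (adjusted p = 3.76e-06), all 3 kept under every alternative that was run. LAMB1 and LAMA1 were higher and LAMB2 lower in Cond 2. In each case the 3 libraries of Cond 3 and of Cond 2 did not overlap in TPM. The calls against Cond 1 were less firm for LAMA1 in Cond 3 and for LAMB2 in Cond 2. LAMB2 TPM was also below every library of Cond 1 in Cond 4, where it was not called.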

How the results depend on the processing

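Of 40 called changes of single genes, 26 were called in the same direction under every alternative run. Of 551 alternative fits of these changes, 499 kept the call, 52 lost it and 0 turned in direction. The 12 genes called in Cond 2 became 7 with limma on log2(TPM + 1) and 5 on log2(TPM + 0.1), and the 14 of Cond 3 became 9 with the latter. The DEGs of Cond 2, 2 in number, became 0 among genes with at least 1 TPM in all libraries, with limma on either scale and with the 6 libraries alone, and 1 with the replicate block. With at least 1 TPM in all libraries the DEGs fell from 3 to 1 in Cond 3, and from 4 to 1 for Cond 3 against Cond 2, where limma on log2(TPM + 1) also gave 1. The TPM minimum tests fewer of the genes, 21 in place of 31, and leaves out ITGAX, LAMA3, ITGAM, LAMB3 and ITGA1. ITGAX, LAMA3 and ITGAM were under 1 TPM in every library. On log2(TPM + 1) they could therefore not reach a fold change above 2. These losses were fixed in advance and are no check of the DEGs. The cause of the other changes with limma, and of those with the 6 libraries and the block, was not tested. With each replicate left out, called genes numbered 7 to 12 in Cond 2, 12 to 14 in Cond 3, 0 to 0 in Cond 4 and 13 to 16 for Cond 3 against Cond 2, and DEGs 0 to 3, 3 to 4, 0 to 0 and 3 to 5.

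Changes near 0 turned in sign. ITGA3 in Cond 2 was 0.0671 and 0.0714 with limma on log2(TPM + 1) and log2(TPM + 0.1), and between -0.11 and 0.10 with a replicate left out, and in Cond 3 it was between -0.0325 and 0.18. ITGA6 in Cond 3 was 0.00287 with DESeq2, 0.0185 with upper-quartile normalization, 0.00769 with the TPM minimum, 0.0283 and 0.0285 with limma, and between -0.0432 and 0.037 with a replicate left out.

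Replicate numbers are shared between conditions, but same-numbered libraries did not deviate together (correlations of -0.0131 to 0.0379) and did not all correlate best with their own number. With the number as a block, 11, 14, 0 and 14 genes were called in Cond 2, Cond 3, Cond 4 and Cond 3 against Cond 2. Of the 38 genes 7 were not tested, 6 for low counts and ITGB2 for having no count row.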

Other observations

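In Cond 3 against Cond 2, lists outside the main comparisons moved as follows, where 19% of all genes tested were called higher and 19.2% lower. Of 30 integrin adaptors 5 were higher, among them TNS1 (log2 fold change 0.83) and TNS2 (0.82). The 12 lower included VCL (vinculin, log2 fold change -1.09, adjusted p = 2.48e-14 from edgeR) and FERMT2, lower by 1.26. Of 17 basement membrane partners 6 were higher, among them SPARC (0.60) and TINAGL1 (1.23), and 5 lower, among them COL4A6 (-0.95) and HSPG2 (-0.60). Of 15 other integrin ligands 7 were higher, among them TNC (1.82) and COL1A1 (1.31), and 5 lower, among them THBS1 (-1.87) and CCN2 (-1.72). Of 11 other laminin receptors and tetraspanins 6 were higher, among them CD82 (1.81) and CD9, and 1 was lower, BCAM (-0.56). CD9 had a mean of 99 TPM in Cond 3 and 36.1 in Cond 2 (1.52, adjusted p = 7.43e-13 from edgeR).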
